A study of Mus musculus with 9 samples.

Results

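The 31 genes described here are Trp53, which encodes the transcription factor p53, its regulators Mdm2 and Mdm4, and 28 genes known as targets of p53 or tied to it. They were chosen by symbol, and all 31 were among the 55418 gene symbols of the count table. The 9 libraries hold mRNA of 66cl4, murine triple negative breast cancer cells grown in culture, as 3 biological replicates in each of 3 groups. The group SCR carried a scrambled short hairpin RNA, and the groups shEya3_KD1 and shEya3_KD2 carried different hairpins against Eya3, a gene whose product acts both in transcription and as a tyrosine phosphatase. All 3 groups, controls included, were held in 2.5 µg/ml puromycin after transduction, an antibiotic that keeps cells carrying the vector. The labels do not say whether each culture was a pool or a clone, and the cultures behind the replicates are not described. The p-values therefore measure only how much these libraries varied, which may be technical.

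p53 is held at a low level in unstressed cells because Mdm2 marks it for degradation and Mdm4 masks its activating domain. DNA damage, oncogene activity and ribosome stress lift that block, and p53 then switches on genes that halt the cell cycle, start cell death, repair DNA and adjust metabolism. Mdm2 is itself a target, which closes a feedback loop, and p53 acts mainly through its protein level and modification, which messenger RNA counts do not show. Many of the targets also answer to other transcription factors. In breast tumours p53 is often mutated. No sequence variant was examined here.

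Library totals lay between 27758862 and 52691960 counts, and 15914 genes passed the filter on low counts and were tested. Levels are given in CPM, counts relative to the TMM-scaled library total. Eya3 stood at 68.1, 79.0 and 71.6 CPM in SCR replicates 1 to 3, at 24.9, 21.5 and 22.9 CPM in shEya3_KD1 and at 38.6, 39.8 and 34.1 CPM in shEya3_KD2, so the groups did not overlap and shEya3_KD1 was the lowest. The cells matched their label in part: the epithelial keratin gene Krt8 lay between 655 and 1369.5 CPM, whereas Epcam had no counts in any library and Cdh1 reached no more than 0.258 CPM. The keratin genes Krt18, Krt5 and Krt14 were far lower than Krt8. Krt18 had means of 0.028, 0.95 and 2.62 CPM in SCR, shEya3_KD1 and shEya3_KD2. In the same order Krt5 had 0.021, 0.505 and 0.033 CPM, and Krt14 had 1.32, 0.561 and 11.8 CPM. Of the hormone receptor genes, Pgr had no counts and Esr1 lay between 6.85 and 21.3 CPM. Erbb2, also a receptor gene of the triple negative label, had means of 53.6, 65.3 and 67.1 CPM in that order. Whether these levels fit the label was not tested. Among 8 macrophage markers C1qa and C1qc were at 0 in all libraries, and the summed level was 47.2 to 50.6 CPM in SCR, 26.8 to 31.7 CPM in shEya3_KD1 and 21.2 to 27.3 CPM in shEya3_KD2. Most of it came from Lyz2 and Cd68. The summed level of 5 endothelial markers was 4.10 to 4.88 CPM in SCR, 0.538 to 0.749 CPM in shEya3_KD1 and 1.89 to 2.57 CPM in shEya3_KD2. In SCR and shEya3_KD2 most of it came from Cdh5, with means of 3.72 and 2.12 CPM. The sums of other lists were higher in shEya3_KD1 than in SCR, each mostly from 1 gene. In the same order of groups, 5 fibroblast markers summed to 28.2 to 35.2, 38.45 to 40.8 and 28.5 to 40.7 CPM. Most of it came from Pdgfra, with means of 28.0, 37.9 and 33.1 CPM. Col1a1 went the other way, with 3.65, 1.29 and 2.45 CPM. For 5 lymphocyte markers the sums were 0.432 to 0.745, 1.05 to 1.19 and 0.307 to 0.369 CPM. Cd3g held most of that, with means of 0.488, 1.01 and 0.292 CPM, while Cd3e had 13, 13 and 3 counts. The part of these lists in the results was not tested. Long transcripts were counted relatively more often in 2 shEya3_KD2 libraries. The median log2 level relative to the SCR mean was 0.75 higher for genes with transcripts of at least 8000 bases than for those of at most 1500 bases in replicate 2. It was 0.37 higher in replicate 1 and 0.12 higher in replicate 3, against -0.15 to 0.20 in the other libraries.

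Of the 31 members 29 were tested, and 28 of them lay in every library above the filter's level of 0.236 CPM. The exceptions were Gdf15, which passed through shEya3_KD1 alone, and Pmaip1 and Perp, which were too low to test. Replicates lay close together. Over the 28 members the coefficient of variation had a median of 4.76% in SCR, 6.48% in shEya3_KD1 and 6.30% in shEya3_KD2, and its highest value was 17.2% for Fas in shEya3_KD1.

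Scaled to the length of the annotated exons, the most abundant members in SCR were Plk2 with 104 CPM per kilobase, Trp53 with 85.4, Ccng1 with 55.0 and Bax with 49.2. Mdm2 and Cdkn1a followed with 38.7 and 32.4 CPM per kilobase. The lowest of the 28 were Fas with 1.96 and Trp53inp1 with 1.59 CPM per kilobase.

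**Figure D1:**
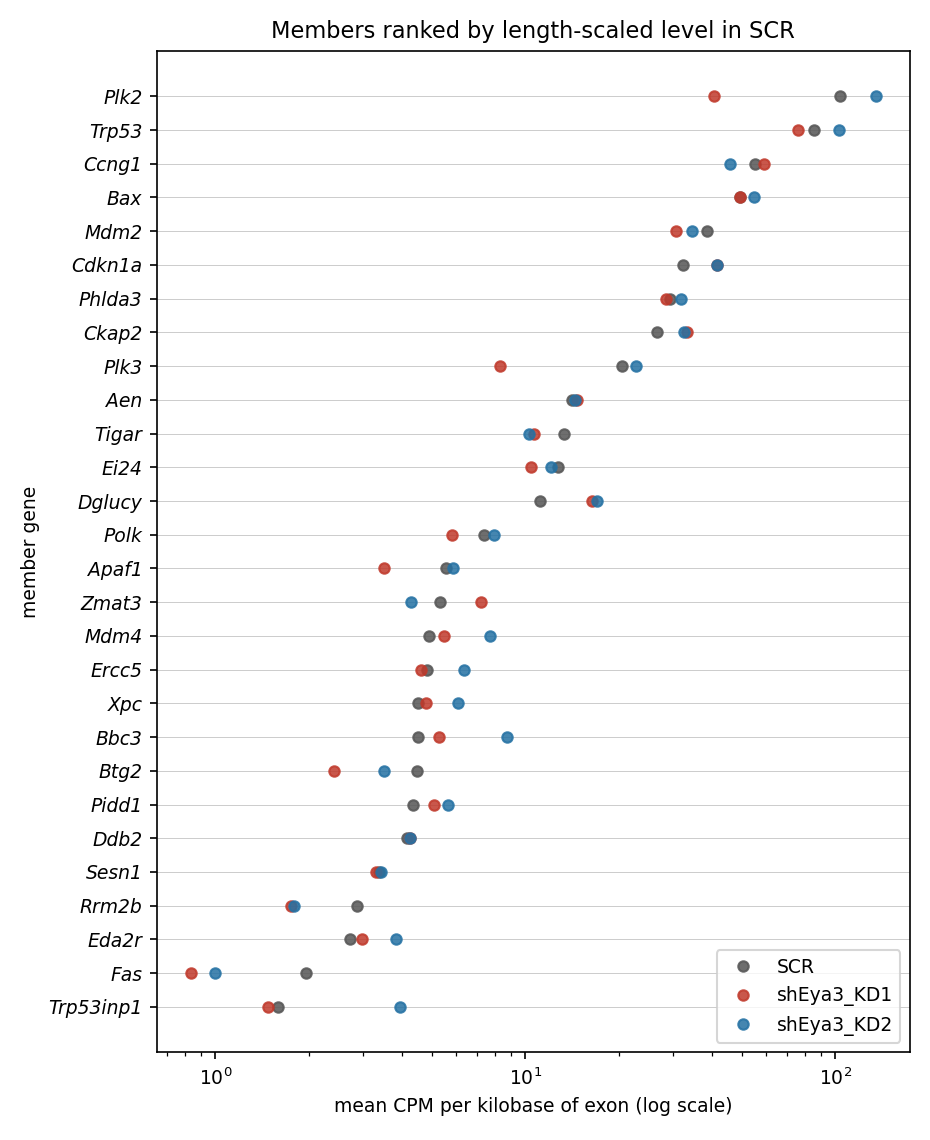
Mean level of 28 members in CPM per kilobase of annotated exon (log axis), ranked by the SCR mean, with 1 point per group (3 libraries each). Plk2 and Trp53 lie at the top with 104 and 85.4 CPM per kilobase in SCR, and the shEya3_KD1 points of Plk2 and Plk3 lie well to the left of the other groups.

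The promoters of a few members are shown because their windows carry, or lack, a match without mismatch to the motif that p53 binds. p53 binds as a tetramer to a pair of 10-base half-sites with a spacer of up to 13 bases. The half-site motif reads the same on both strands, so a search of 1 strand covers both. RefSeq windows (GRCm38.p6) of 250 bases before to 50 after a start were found for 24 of the 31 members, 32 windows in all. A half-site without mismatch lay in 11 of these 32 windows, in 10 genes, against 8.36% of all 32851 windows in the table. A pair with an allowed spacer lay in a window of 1 member, Cdkn1a, against 0.0731% of all windows. Sites farther from the start or with mismatches, which are common among known p53 sites, were not searched. The sequences are written 5′ to 3′ with each half-site in capitals. The first is the upstream start of Cdkn1a, then come the starts of Mdm2 and Ccng1 with 1 half-site without mismatch each. Last is that of Plk2, with no such match in the window. Plk2 had the widest change with shEya3_KD1 among the 28 members that passed the filter in every group. Near matches are not in capitals. In Cdkn1a the bases tgacatgttc, directly after the last half-site, differ from the motif at 1 base. So do the bases agacctgccc directly before the half-site of Ccng1.
Cdkn1a (chr17:29090729-29091028, plus strand): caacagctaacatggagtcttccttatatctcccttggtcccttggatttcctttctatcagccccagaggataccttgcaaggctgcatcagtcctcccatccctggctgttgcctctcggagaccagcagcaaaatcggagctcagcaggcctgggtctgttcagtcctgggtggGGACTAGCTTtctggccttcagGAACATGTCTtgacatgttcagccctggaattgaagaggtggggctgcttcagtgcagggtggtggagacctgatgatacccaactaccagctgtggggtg
Mdm2 (chr10:117710709-117711008, minus strand): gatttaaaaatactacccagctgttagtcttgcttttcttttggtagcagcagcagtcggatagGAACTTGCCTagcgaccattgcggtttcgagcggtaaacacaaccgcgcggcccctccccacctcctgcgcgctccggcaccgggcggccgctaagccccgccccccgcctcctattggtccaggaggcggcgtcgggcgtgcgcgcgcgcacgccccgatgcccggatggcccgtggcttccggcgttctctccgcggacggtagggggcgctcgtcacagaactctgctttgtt
Ccng1 (chr11:40755237-40755536, minus strand): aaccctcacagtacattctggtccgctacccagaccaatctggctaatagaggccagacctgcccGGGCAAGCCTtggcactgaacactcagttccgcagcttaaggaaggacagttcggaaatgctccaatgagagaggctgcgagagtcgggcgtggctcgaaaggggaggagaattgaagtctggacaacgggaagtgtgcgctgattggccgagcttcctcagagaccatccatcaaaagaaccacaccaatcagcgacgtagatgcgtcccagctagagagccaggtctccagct
Plk2 (chr13:110394794-110395093, plus strand): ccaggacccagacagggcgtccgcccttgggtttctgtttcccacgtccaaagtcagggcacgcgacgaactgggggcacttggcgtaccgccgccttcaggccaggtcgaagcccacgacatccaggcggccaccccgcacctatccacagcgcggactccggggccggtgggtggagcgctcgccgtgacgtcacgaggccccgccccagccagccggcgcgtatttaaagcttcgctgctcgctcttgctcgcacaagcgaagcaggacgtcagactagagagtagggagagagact

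**Figure D2:**
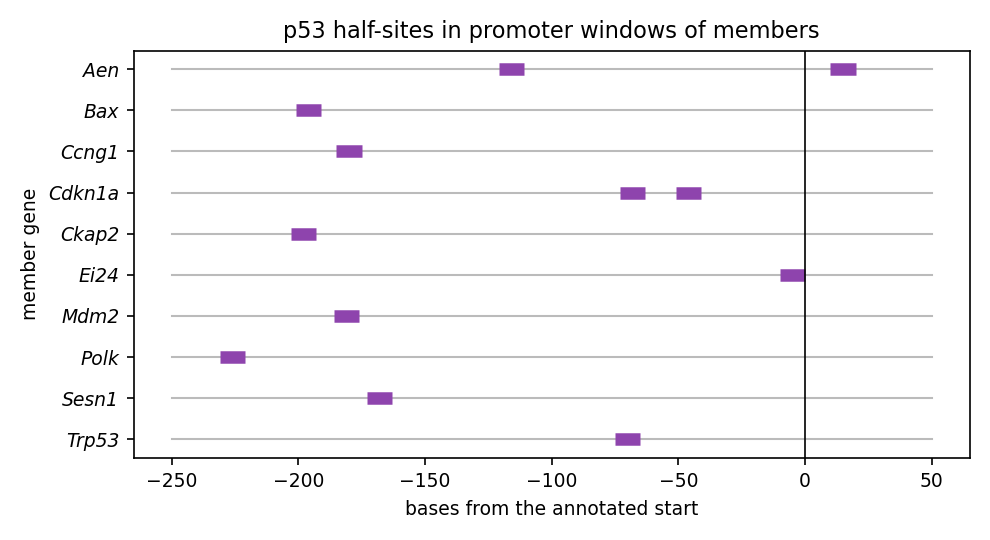
Position of p53 half-sites without mismatch (purple blocks, 10 bases each) in the promoter windows of the 10 members that hold one. Positions are in bases from the annotated start (vertical line). A grey line marks the window from 250 bases before to 50 after it. Cdkn1a holds a pair 12 bases apart, and both marks of Aen are the same bases seen from 2 annotated starts.

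With shEya3_KD1, the hairpin that left less Eya3, the members went both ways. Plk2, Plk3 and Fas fell more than 2-fold, while Cdkn1a, Zmat3, Ckap2 and Dglucy rose by less than 1.5-fold. Of the 29 tested, 5 rose and 10 fell (quasi-likelihood test of edgeR, Benjamini-Hochberg adjusted p below 0.05 over all genes), 51.7% of the members against 50.3% of all genes tested. By direction, 17.2% rose and 34.5% fell, against 24.1% and 26.2% of all genes. The share called was thus close to that of all genes, and no result about the group follows from it. The median log2 fold change of the members was -0.025, against 0.01 for all genes. Over 2-fold, 3 members fell and 1, the low gene Gdf15 that passed the filter through this group alone, rose, against 9.53% and 5.17% of all genes and 14.7% in either direction. In bulk cultures a smaller share of cells with a transcript and less of it per cell cannot be told apart, here and in what follows.

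With shEya3_KD2, which left more Eya3, several death, repair and regulator genes were higher. Trp53inp1 rose more than 2-fold, Bbc3 nearly as much, and Mdm4, Eda2r, Xpc and Ercc5 less, while Fas and Rrm2b fell. In all 12 of 29 rose and 7 fell, 65.5% against 45.3% of all genes tested. By direction these are 41.4% and 24.1%, against 23% and 22.3% of all genes, and the median log2 fold change was 0.11, against 0 for all genes. Only Trp53inp1 changed more than 2-fold, against 3.37% of all genes that rose and 5.93% that fell that far (9.3% in all). Both comparisons share the SCR libraries, so their values are given side by side and not as support for each other.

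Set against each other, the hairpins differed in 17 of 29 members, 58.6% against 49.6% of all genes tested. With shEya3_KD2 14 members were higher than with shEya3_KD1, 48.3% against 27% of all genes, and 3 were lower, 10.3% against 22.5%. The median difference was 0.17 on the log2 scale, against 0 for all genes. More than 2-fold apart were Plk2, Plk3 and Trp53inp1, higher with shEya3_KD2, and Gdf15, lower, against 7.25% and 5.17% of all genes (12.4% in all). Gdf15 passed the filter through shEya3_KD1 alone and so had to differ. The summed level of all 31 members was 2197 to 2264 CPM in SCR, 1857 to 1922 CPM in shEya3_KD1 and 2473 to 2594 CPM in shEya3_KD2, without overlap. Of that sum Plk2 held 466, 182 and 605 CPM on average.

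**Figure D3:**
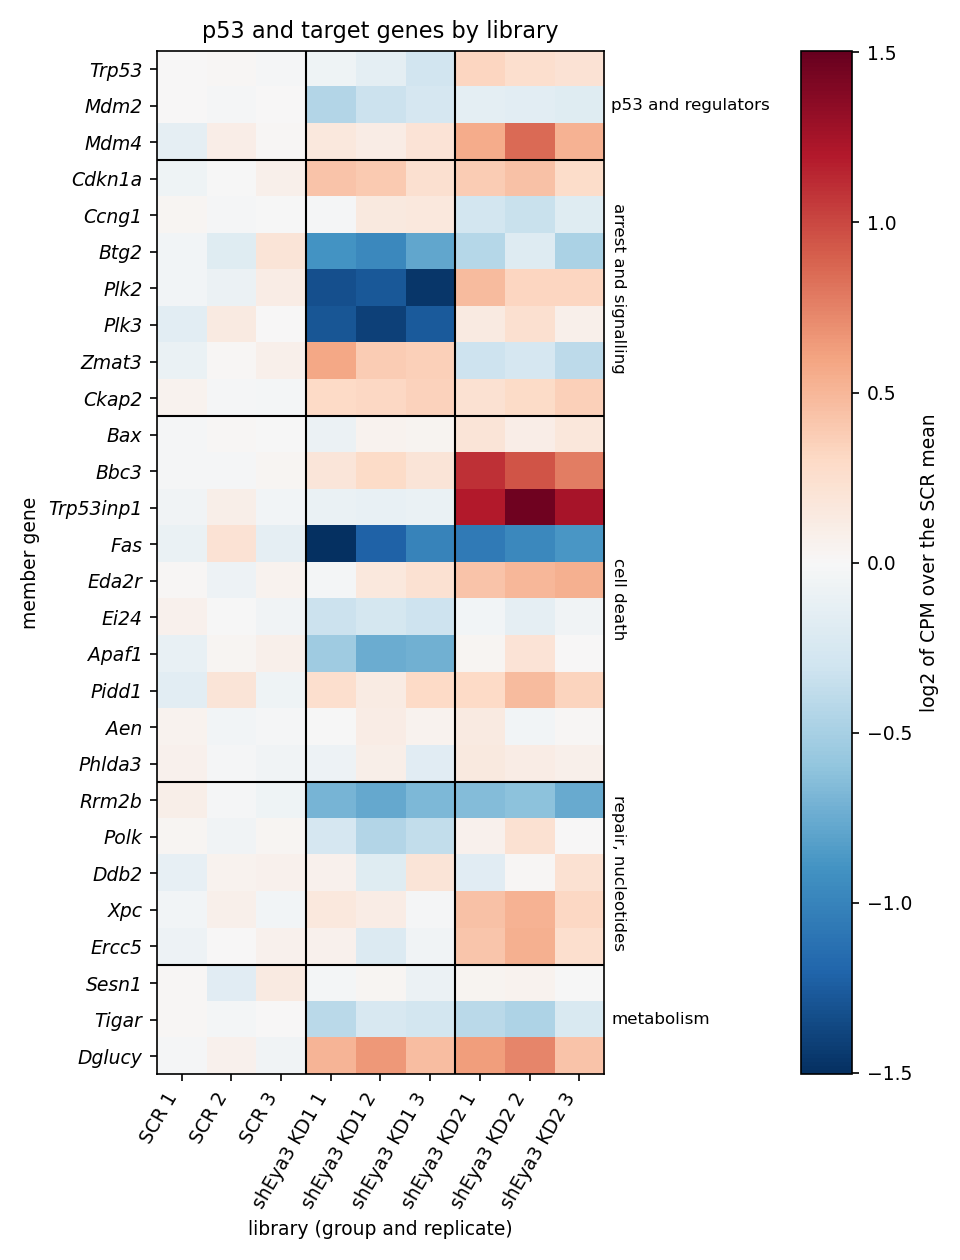
Level of 28 members in each of the 9 libraries, as the log2 of CPM over the SCR mean (red higher, blue lower), with members in rows by role and libraries in columns by group. Plk2, Plk3, Btg2 and Fas are blue in all 3 shEya3_KD1 libraries, and Bbc3, Trp53inp1 and Mdm4 are red in all 3 shEya3_KD2 libraries.

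Of the 3 regulators, 1 passed the test as lower with shEya3_KD1, where 26.2% of all genes fell. With shEya3_KD2 2 were called higher and 1 lower, against 23% and 22.3% of all genes. All 3 were called higher with shEya3_KD2 than with shEya3_KD1, against 27% of all genes, although the call of Mdm2 was not stable. Trp53 (mm10, chromosome 11, 69580359 to 69591873) had 346, 349 and 341 CPM in SCR, 329, 312 and 282 CPM in shEya3_KD1 and 430.4, 412 and 402 CPM in shEya3_KD2. Each shEya3_KD2 library lay above, and each shEya3_KD1 library below, all SCR libraries. Trp53 rose with shEya3_KD2 (log2 fold change 0.27 ± 0.068 SE, adjusted p = 0.0053 by edgeR). With shEya3_KD1 it did not pass the test (-0.17 ± 0.068, adjusted p = 0.0556), although it did with an adjusted p of 0.0226 without shEya3_KD1 replicate 1, 0.0461 without shEya3_KD2 replicate 2 and 0.048 without shEya3_KD2 replicate 3. It also passed in DESeq2 and in 3 other settings of the fit, with adjusted p of 0.0327 to 0.0467. The hairpins differed by 0.43 ± 0.068 on the log2 scale (adjusted p = 0.000101).

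Mdm2 (mm10, chromosome 10, 117688875 to 117710758), the ubiquitin ligase that degrades p53, had 198, 194 and 198 CPM in SCR, 145, 158 and 165 CPM in shEya3_KD1 and 178, 176 and 174 CPM in shEya3_KD2. All 6 hairpin libraries lay below all SCR libraries. Mdm2 fell by 0.33 ± 0.063 on the log2 scale with shEya3_KD1 (adjusted p = 0.000397) and by 0.16 ± 0.063 with shEya3_KD2 (adjusted p = 0.0481). The second call was marginal. It was lost without any single SCR or shEya3_KD2 library and without shEya3_KD1 replicate 2, with adjusted p of 0.0685 to 0.124, and the log2 fold change ranged from -0.18 to -0.15 over the fits with a library left out. It was also lost with no filter on low counts (adjusted p = 0.168). The difference between the hairpins (0.17 ± 0.063, adjusted p = 0.0335) was also lost without replicate 1 or 2 of either hairpin, at 0.12 to 0.19. The same held with the filter of 5 CPM (adjusted p = 0.0597) and with only the groups compared (adjusted p = 0.128). Trp53 and Mdm2 thus moved in opposite directions in shEya3_KD2, where the drop of Mdm2 was small.

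Mdm4 (mm10, chromosome 1, 132959484 to 133030561), the relative of Mdm2 that masks the activating domain of p53, had 66.4, 78.1 and 73.4 CPM in SCR, 81.1, 78.1 and 83.4 CPM in shEya3_KD1 and 107, 131 and 104 CPM in shEya3_KD2. The shEya3_KD2 libraries were clear of all others, with replicate 2 the highest. Mdm4 rose by 0.65 ± 0.088 with shEya3_KD2 (adjusted p = 3.07e-05) and had 0.16 ± 0.088 with shEya3_KD1 (adjusted p = 0.158). Its longest annotated transcript has 7105 bases, and long transcripts were relatively high in shEya3_KD2 replicate 2. Without that library the log2 fold change was 0.54. The members with the longest transcripts were Zmat3 (7797 bases), Mdm4, Apaf1 (6577) and Trp53inp1 (5432). With shEya3_KD2 Mdm4 and Trp53inp1 rose, Apaf1 was not called and Zmat3 fell. The part of transcript length in these values was not tested.

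**Figure D4:**
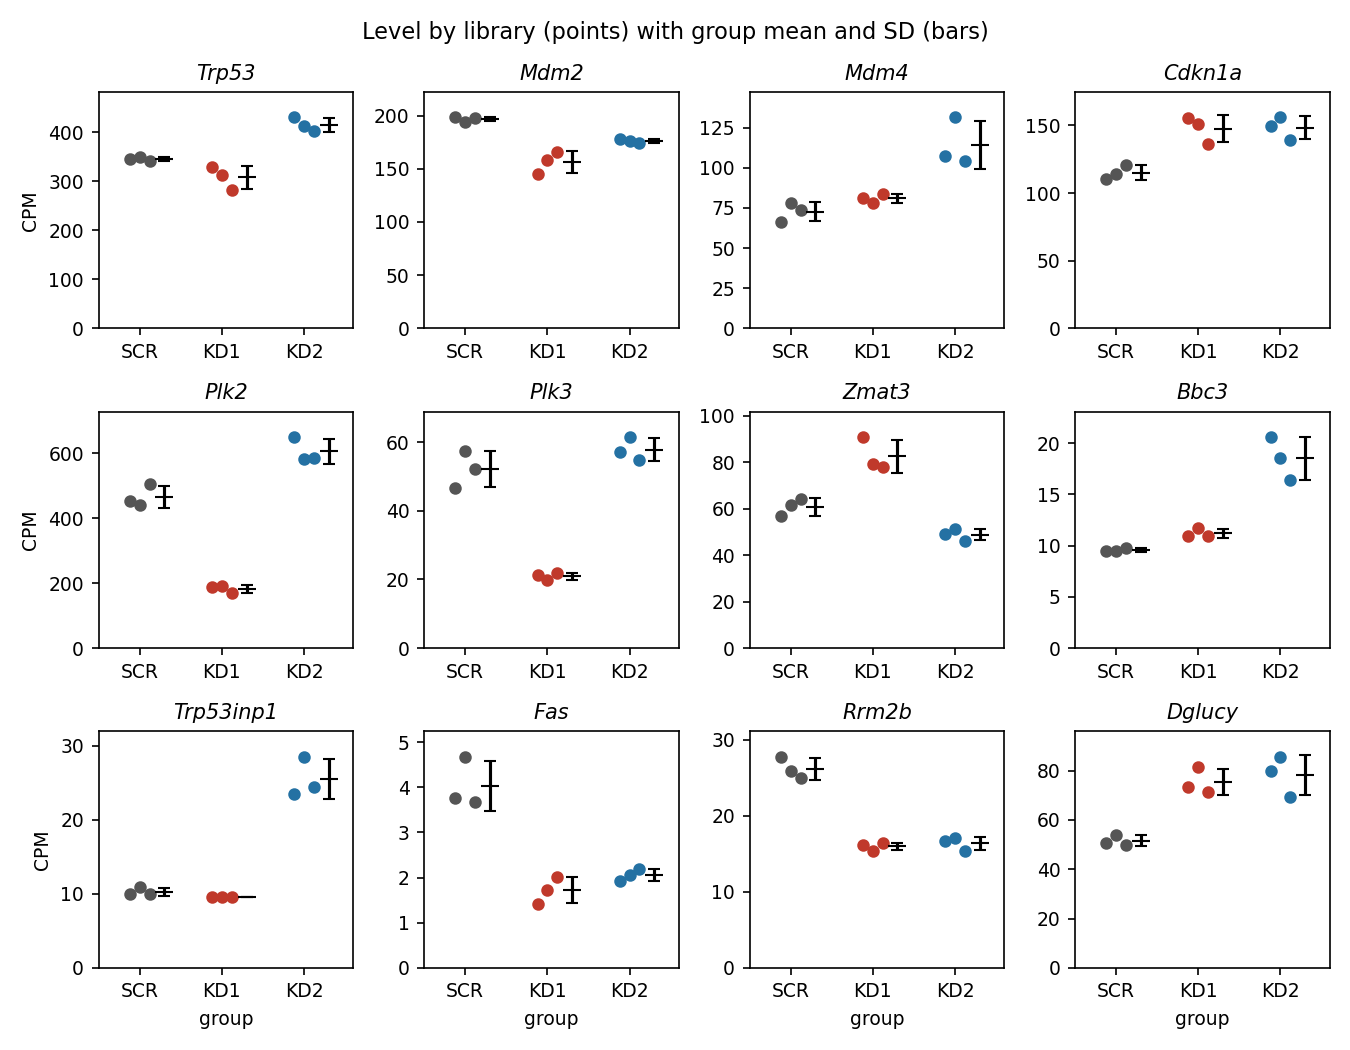
Level in CPM of 12 members by library (points; 3 libraries a group) with the group mean and SD (bars), each axis starting at 0, for SCR, shEya3_KD1 (KD1) and shEya3_KD2 (KD2). The groups are clear of each other for Plk2, while Rrm2b and Dglucy lie at like levels with either hairpin.

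Of the 8 genes of cell cycle arrest and signalling, 4 were called higher and 3 lower with shEya3_KD1 than in SCR, against 24.1% and 26.2% of all genes. The 4 include Gdf15, which passed the filter through that group alone. The same counts for shEya3_KD2 were 3 and 3, against 23% and 22.3%. Cdkn1a, which encodes the CDK inhibitor p21, is the best known target (mm10, chromosome 17, 29090976 to 29100727). It had 110.1, 114 and 121 CPM in SCR, 155, 151 and 136 CPM in shEya3_KD1 and 149.9, 156 and 139 CPM in shEya3_KD2, so all hairpin libraries lay above all SCR libraries and overlapped each other. Cdkn1a rose by 0.36 ± 0.071 (adjusted p = 0.000604) and by 0.37 ± 0.071 (adjusted p = 0.000728) on the log2 scale. The difference between the hairpins had a 95% interval of -0.15 to 0.16. Its upstream start holds the pair of half-sites without mismatch printed above, beside a near match. Which of these p53 binds was not tested, and the level at separate starts was not resolved by these counts.

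Plk2 and Plk3 encode polo-like kinases that respond to stress and growth signals. Plk2 (mm10, chromosome 13, 110395046 to 110400844) had 453, 439 and 505 CPM in SCR, 187, 192 and 169 CPM in shEya3_KD1 and 649.6, 581 and 585 CPM in shEya3_KD2. The 3 groups did not overlap, and the hairpins lay on opposite sides of SCR. Plk2 fell by 1.35 ± 0.078 with shEya3_KD1 (adjusted p = 1.70e-09) and rose by 0.38 ± 0.077 with shEya3_KD2 (adjusted p = 0.00102), a difference between hairpins of 1.73 ± 0.079 (adjusted p = 1.73e-10). Plk3 (mm10, chromosome 4, 117128655 to 117133963) had 46.8, 57.3 and 52.2 CPM in SCR, 21.3, 19.7 and 21.8 CPM in shEya3_KD1 and 57.1, 61.5 and 54.8 CPM in shEya3_KD2. It fell by 1.32 ± 0.083 with shEya3_KD1 (adjusted p = 4.54e-09), while shEya3_KD2 overlapped SCR (0.15 ± 0.08, adjusted p = 0.144). The exons of Plk3 overlap 84 bases of Tctex1d4 on the other strand, and the strand setting of the counting is not given in the sources used here.

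Zmat3, an RNA-binding zinc finger protein, went the opposite way to Plk2. It had 56.6, 61.3 and 64.3 CPM in SCR, 90.7, 78.9 and 77.9 CPM in shEya3_KD1 and 49.1, 51.2 and 46.1 CPM in shEya3_KD2. No groups overlapped, with shEya3_KD1 the highest and shEya3_KD2 the lowest. It rose by 0.44 ± 0.076 with shEya3_KD1 (adjusted p = 0.000187) and fell by 0.32 ± 0.077 with shEya3_KD2 (adjusted p = 0.00377). Plk2 and Zmat3 were the 2 members called in opposite directions with the 2 hairpins. The share of all genes called in opposite directions was not counted, so no result about the members follows from this number.

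Btg2, an antiproliferative factor that promotes mRNA deadenylation, had 11.9, 10.9 and 14.1 CPM in SCR, 6.59, 6.25 and 7.11 CPM in shEya3_KD1 and 9.14, 10.7 and 8.82 CPM in shEya3_KD2. Both hairpin groups lay below SCR and shEya3_KD1 was the lower. It fell by 0.88 ± 0.11 with shEya3_KD1 (adjusted p = 9.31e-06) and by 0.37 ± 0.11 with shEya3_KD2 (adjusted p = 0.0129). The latter call was lost without SCR replicate 3 (-0.26, adjusted p = 0.0838) and without shEya3_KD2 replicate 1 (-0.34, adjusted p = 0.0599). Ccng1, which encodes cyclin G1, a partner of the phosphatase PP2A that acts on Mdm2, had 197, 191 and 191 CPM in SCR, 190.1, 214 and 216 CPM in shEya3_KD1 and 159, 153 and 170.5 CPM in shEya3_KD2. The shEya3_KD2 libraries alone stood apart, below the rest. Ccng1 fell by 0.26 ± 0.068 with shEya3_KD2 (adjusted p = 0.0058) and had 0.099 ± 0.068 with shEya3_KD1 (adjusted p = 0.245).

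Ckap2, a protein of spindle microtubules, had 88.6, 84.2 and 83.9 CPM in SCR, 106, 106 and 109 CPM in shEya3_KD1 and 100.01, 105 and 109.9 CPM in shEya3_KD2, higher in each hairpin library than in each SCR library. It rose by 0.32 ± 0.061 and 0.29 ± 0.061 (adjusted p = 0.000431 and 0.00126). Gdf15, a secreted cytokine of stressed cells and a common readout of p53 activity, was near the limit of detection. It had 7, 8 and 5 counts in SCR, 15, 20 and 11 in shEya3_KD1 and 4, 3 and 4 in shEya3_KD2. The ratio of shEya3_KD1 to SCR was 2.80 with a 95% counting interval of 1.62 to 5.00, and that of shEya3_KD2 to SCR was 0.651 with an interval of 0.282 to 1.43. Since Gdf15 passed the filter through shEya3_KD1 alone, its test result is no support for a change.

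Of 10 death genes tested, 3 fell and none rose with shEya3_KD1, against 26.2% and 24.1% of all genes. With shEya3_KD2 4 rose and 1 fell, against 23% and 22.3%. Between the hairpins 5 were higher and none lower with shEya3_KD2, against 27% and 22.5%. Bbc3, which encodes the BH3-only protein Puma (mm10, chromosome 7, 16308393 to 16318205), had 9.52, 9.49 and 9.81 CPM in SCR, 10.9, 11.7 and 10.9 CPM in shEya3_KD1 and 20.6, 18.6 and 16.4 CPM in shEya3_KD2. The shEya3_KD2 libraries were far above both other groups. Bbc3 rose by 0.95 ± 0.09 with shEya3_KD2 (adjusted p = 9.53e-07) and had 0.22 ± 0.092 with shEya3_KD1 (adjusted p = 0.0566). The shEya3_KD1 value passed at 0.0488 without shEya3_KD2 replicate 2 and at 0.0321 without replicate 3 of that group. It also passed with the filter of 5 CPM (0.0484) and with only the groups compared (0.0247).

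Bax, the pore former of the outer mitochondrial membrane, had 76.7, 78.8 and 77.2 CPM in SCR, 73.0, 80.7 and 79.9 CPM in shEya3_KD1 and 88.6, 82.9 and 87.0 CPM in shEya3_KD2. It did not pass the test with either hairpin, with 95% intervals of -0.13 to 0.14 and 0.018 to 0.29 on the log2 scale. All 3 shEya3_KD2 libraries lay above SCR, and Bax passed there without shEya3_KD1 replicate 1 or without shEya3_KD2 replicate 2 (log2 fold changes 0.15 and 0.18, adjusted p = 0.0439 and 0.043). Without shEya3_KD2 replicate 2 it also differed between the hairpins (0.18, adjusted p = 0.0442). Pmaip1, which encodes the BH3-only protein Noxa, had 1 count in all 9 libraries together, in shEya3_KD1. Apaf1, the scaffold of the apoptosome, had 46.2, 51.2 and 52.7 CPM in SCR, 34.4, 29.8 and 30.3 CPM in shEya3_KD1 and 50.9, 57.9 and 50.05 CPM in shEya3_KD2. It fell by 0.67 ± 0.082 with shEya3_KD1 (adjusted p = 6.74e-06), and SCR and shEya3_KD2 overlapped.

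Trp53inp1, a nuclear protein that promotes p53 activity and autophagy, showed the widest change with shEya3_KD2. It had 9.97, 10.9 and 10.0 CPM in SCR, 9.59, 9.54 and 9.62 CPM in shEya3_KD1 and 23.6, 28.5 and 24.4 CPM in shEya3_KD2. The shEya3_KD2 libraries stood at more than 2-fold the level of the others, while shEya3_KD1 lay just under SCR. It rose by 1.3 ± 0.085 with shEya3_KD2 (adjusted p = 2.25e-08) and had -0.11 ± 0.089 with shEya3_KD1 (adjusted p = 0.345). Its longest annotated transcript has 5432 bases, and the part of transcript length in its value was not tested.

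The death receptor genes split. Fas, the receptor of Fas ligand (mm10, chromosome 19, 34290666 to 34327772), had 3.76, 4.68 and 3.68 CPM in SCR, 1.42, 1.73 and 2.02 CPM in shEya3_KD1 and 1.93, 2.07 and 2.19 CPM in shEya3_KD2. All hairpin libraries lay below all SCR libraries and overlapped each other. Fas fell by 1.24 ± 0.16 (adjusted p = 8.61e-06) and 0.97 ± 0.15 (adjusted p = 0.000112) on the log2 scale. Eda2r, a receptor of the TNF receptor family that binds ectodysplasin A2, had 16.2, 15.3 and 16.7 CPM in SCR, 15.8, 17.964 and 18.8 CPM in shEya3_KD1 and 21.7, 22.8 and 23.3 CPM in shEya3_KD2. It rose by 0.49 ± 0.08 with shEya3_KD2 (adjusted p = 0.000171), whereas shEya3_KD1 overlapped SCR (0.12 ± 0.081, adjusted p = 0.219).

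The remaining death genes were Pidd1, Ei24, Aen, Phlda3 and Perp. Pidd1, the scaffold that activates caspase-2, rose by 0.37 ± 0.094 with shEya3_KD2 (adjusted p = 0.00499) and had 0.22 ± 0.094 with shEya3_KD1 (adjusted p = 0.0612). The shEya3_KD1 value passed without SCR replicate 2 (0.32, adjusted p = 0.00998) and without shEya3_KD2 replicate 2 or 3 (adjusted p = 0.038 and 0.048). With no filter and with only the groups compared the adjusted p was 0.0431 and 0.0427. Ei24, a membrane protein of the endoplasmic reticulum, fell by 0.30 ± 0.062 with shEya3_KD1 (adjusted p = 0.00081) and had -0.076 ± 0.062 with shEya3_KD2. Aen, a nuclease, stood at 82.1 ± 2.94 CPM in SCR (mean ± SD, n = 3), 85.1 ± 3.68 in shEya3_KD1 and 84.4 ± 5.28 in shEya3_KD2. Phlda3, a pleckstrin homology protein that inhibits Akt, stood at 45.9 ± 1.86, 44.4 ± 4.05 and 49.7 ± 1.16 CPM in the same order. Neither passed the test with a hairpin, and the 95% intervals against SCR reached no farther than -0.20 and 0.27 on the log2 scale. Phlda3 differed between the hairpins only without shEya3_KD1 replicate 2 (0.24, adjusted p = 0.0215). Perp, a membrane protein of desmosomes, had 5, 3 and 2 counts in SCR and none with either hairpin. By a floor of 3 counts over a group it was at least 2.74-fold lower in shEya3_KD1 and at least 2.81-fold lower in shEya3_KD2, from 10 counts in all.

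**Figure D5:**
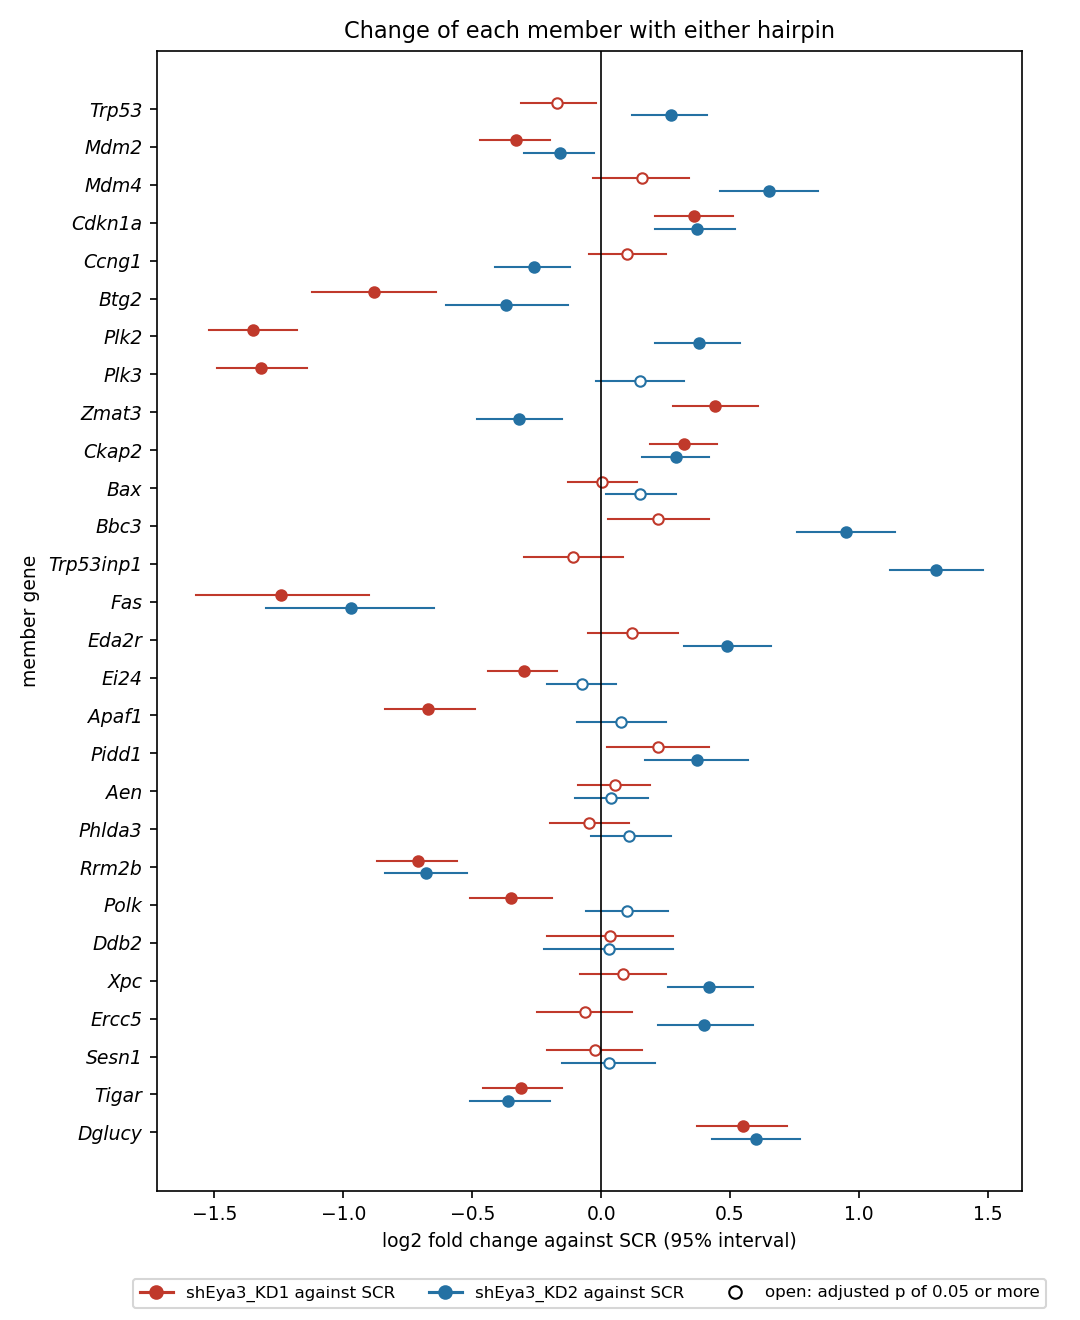
Log2 fold change against SCR of 28 members with shEya3_KD1 (red) and shEya3_KD2 (blue), with 95% intervals as lines and filled points for an adjusted p below 0.05. Plk2 and Zmat3 lie on opposite sides of 0 with the 2 hairpins, Rrm2b, Tigar and Dglucy on the same side, and Aen, Ddb2 and Sesn1 near 0.

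Of the 5 repair genes, 2 (40%) fell with shEya3_KD1 and none rose, against 26.2% and 24.1% of all genes. In either direction 50.3% of all genes were called there. With shEya3_KD2 2 (40%) rose and 1 (20%) fell, against 23% and 22.3% of all genes, with 45.3% called in either direction. Rrm2b, the p53-induced subunit of ribonucleotide reductase (mm10, chromosome 15, 37923952 to 37961318), had 27.8, 25.9 and 25.0 CPM in SCR, 16.1, 15.4 and 16.4 CPM in shEya3_KD1 and 16.7, 17.1 and 15.4 CPM in shEya3_KD2. Every hairpin library lay below every SCR library. Rrm2b fell by 0.71 ± 0.074 (adjusted p = 1.11e-06) and 0.68 ± 0.074 (adjusted p = 4.16e-06), to 61.0% and 62.6% of the SCR mean. Its exons share 734 bases with the antisense gene Gm49085, which was also tested, so without a known strand setting some reads may belong to that gene.

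Of the 3 genes of nucleotide excision repair, Xpc and Ercc5 rose with shEya3_KD2 and Ddb2 did not pass the test. Xpc, which recognises DNA damage, had 24.1, 26.2 and 24.2 CPM in SCR, 27.7, 26.8 and 24.5 CPM in shEya3_KD1 and 33.6, 35.6 and 30.8 CPM in shEya3_KD2. Ercc5, the nuclease that cuts beside the damage, had 26.7, 28.4 and 29.5 CPM in SCR, 29.4, 24.4 and 27.2 CPM in shEya3_KD1 and 37.5, 40.8 and 33.5 CPM in shEya3_KD2. For both genes the shEya3_KD2 libraries lay above all others, and the other groups overlapped. They rose by 0.42 ± 0.076 and 0.40 ± 0.086 with shEya3_KD2 (adjusted p = 0.000404 and 0.00159). Ddb2, which helps Xpc find ultraviolet damage, stood at 11.3 ± 0.794, 11.6 ± 1.49 and 11.6 ± 1.64 CPM in SCR, shEya3_KD1 and shEya3_KD2. Its 95% interval against SCR was -0.21 to 0.28 with shEya3_KD1 and -0.22 to 0.28 with shEya3_KD2. Its exons share 652 bases with Acp2 on the other strand. Polk, a polymerase that copies past damaged bases, fell by 0.35 ± 0.075 with shEya3_KD1 (adjusted p = 0.00112) and had 0.10 ± 0.074 with shEya3_KD2 (adjusted p = 0.287).

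Of the 3 metabolic members, 1 rose and 1 fell with each hairpin, against 50.3% and 45.3% of all genes called. None passed the test between the hairpins, where 49.6% of all genes did. Dglucy, which encodes mitochondrial D-glutamate cyclase (mm10, chromosome 12, 100779057 to 100896981), had 50.8, 54.0 and 49.9 CPM in SCR, 73.3, 81.3 and 71.4 CPM in shEya3_KD1 and 79.7, 85.6 and 69.4 CPM in shEya3_KD2. The hairpin libraries overlapped each other above all SCR libraries. Dglucy rose by 0.55 ± 0.081 (adjusted p = 4.45e-05) and 0.60 ± 0.081 (adjusted p = 3.12e-05). Tigar, a phosphatase that slows glycolysis, had 49.3, 47.7 and 48.5 CPM in SCR, 36.6, 40.9 and 40.1 CPM in shEya3_KD1 and 36.7, 35.3 and 41.4 CPM in shEya3_KD2, lower in all hairpin libraries. It fell by 0.31 ± 0.073 and 0.36 ± 0.073 (adjusted p = 0.00264 and 0.00106). Sesn1, a sestrin that restrains mTORC1, stood at 13.4 ± 1.38, 13.1 ± 0.496 and 13.7 ± 0.264 CPM in SCR, shEya3_KD1 and shEya3_KD2, with 95% intervals against SCR of -0.21 to 0.16 and -0.15 to 0.21.

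Other genes known as p53 targets were read from a separate list of 28, of which 27 were tested. With shEya3_KD1 6 rose and 15 fell, where 24.1% and 26.2% of all genes did. The median log2 fold change was -0.33, against 0.01 for all genes. Casp1, an inflammatory caspase, went from 9.42, 9.18 and 9.97 CPM in SCR to 0.374, 0.398 and 0.749 CPM, Ier5, an immediate early gene, from 87.8, 76.9 and 88.8 to 25.4, 26.7 and 26.3 CPM, and Gadd45a, a stress sensor of growth arrest, from 21.9, 20.7 and 27.1 to 8.14, 10.1 and 9.74 CPM. Casp1 is also a gene of macrophages. Of their markers, Cd68 had 9.64, 9.85 and 9.42 CPM in SCR, 3.25, 2.85 and 4.52 CPM in shEya3_KD1 and 11.2, 11.963 and 12.977 CPM in shEya3_KD2. Lyz2 had 36.9, 40.0 and 38.9 CPM in SCR, 23.1, 25.4 and 26.8 CPM in shEya3_KD1 and 9.77, 9.34 and 14.2 CPM in shEya3_KD2. Cd68 was thus low in shEya3_KD1 alone, as Casp1 was, and Lyz2 was low with both hairpins. The other markers were near the floor and did not share 1 pattern. Ptprc had 90, 24 and 5 counts in SCR, shEya3_KD1 and shEya3_KD2, and Csf1r had 21, 13 and 10. Tyrobp had 15 counts in shEya3_KD1 and 0 in the other groups, and Adgre1 had 1 count, in SCR. The part of macrophage transcripts in the Casp1 values was not tested. Ptprv, a receptor-type phosphatase, fell by 2.57 ± 0.19 on the log2 scale. With shEya3_KD2 9 rose and 11 fell, where 23% and 22.3% of all genes did, and the median was -0.028, against 0 for all genes. Sesn2, a sestrin that also answers to the stress factor Atf4, rose by 1.16 ± 0.074, Ddit4, an inhibitor of mTORC1, by 1.36 ± 0.086, and Ephx1, an epoxide hydrolase, by 1.14 ± 0.075. Dcxr, a sugar reductase, fell by 1.57 ± 0.27 and Ptprv by 1.42 ± 0.16. Between the hairpins 13 were higher and 3 lower with shEya3_KD2, against 27% and 22.5% of all genes. Gadd45a, at 35.7, 36.5 and 35.3 CPM there, differed by 1.94 ± 0.11, Casp1 by 4.47 ± 0.18, Ier5 by 1.15 ± 0.075, Dcxr by -2.67 ± 0.25 and Pml, a nuclear body protein that is also induced by interferon, by 1.53 ± 0.17.

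Genes that act on p53 were read from a list of 26, of which 25 were tested. With shEya3_KD1 10 rose and 3 fell, where 24.1% and 26.2% of all genes did. The counts with shEya3_KD2 were 15 and 1, where the shares of all genes were 23% and 22.3%. The median log2 fold changes were 0.17 and 0.31, against 0.01 and 0 for all genes. Between the hairpins 11 were higher and 5 lower with shEya3_KD2, against 27% and 22.5%. These counts include Trp63 and Cdkn2a, which passed the filter through 1 group each. Hipk2, a kinase that phosphorylates p53, went from 14.1, 17.4 and 18.5 CPM in SCR to 86.6, 67.2 and 74.8 CPM in shEya3_KD1 and 72.8, 95.6 and 62.4 CPM in shEya3_KD2, with log2 fold changes of 2.20 ± 0.17 and 2.20 ± 0.17 (adjusted p = 1.53e-06 and 3.25e-06). Sirt1, a deacetylase of p53, had 4.85, 5.07 and 5.31 CPM in SCR and 0.999, 1.29 and 1.01 CPM in shEya3_KD1, a fall of 2.20 ± 0.13, and 6.43, 6.65 and 7.13 CPM in shEya3_KD2, 2.61 ± 0.13 above shEya3_KD1. Ppp1r13b, which encodes the p53-binding protein ASPP1, rose by 1.72 ± 0.13 with shEya3_KD2 and was 1.35 ± 0.13 above shEya3_KD1. With shEya3_KD1 the acetyltransferase gene Ep300 rose by 0.70 ± 0.14 and the ribosomal protein gene Rpl5, whose product can bind Mdm2, by 0.57 ± 0.14. Ribosomal protein genes have many near-identical pseudogenes, so the value of Rpl5 is uncertain.

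Atm, the kinase of DNA breaks, rose by 0.81 ± 0.13 with shEya3_KD2, the acetyltransferase gene Crebbp by 0.65 ± 0.15 and Prkdc, the catalytic subunit of DNA-PK, by 0.59 ± 0.18. Against shEya3_KD1, Crebbp and Atm were 0.75 ± 0.16 and 0.64 ± 0.13 higher. The call of Prkdc with shEya3_KD2 was lost without SCR replicate 1 (0.51) or 2 (0.58), and its value was 0.37 without shEya3_KD2 replicate 2. These genes have long transcripts and were highest in shEya3_KD2 replicate 2, at 142 CPM for Atm and 61.3 CPM for Prkdc. Hipk2, Ppp1r13b and Pml were also highest in that library, at 95.6, 23.0 and 269 CPM. The part of transcript length in these values was not tested.

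Genes that p21 represses through the DREAM complex, mostly of DNA replication and mitosis, were read from a list of 20, all tested. With shEya3_KD1 4 rose and 6 fell, and the counts with shEya3_KD2 were 7 and 3. That is 50% called with each hairpin, near the 50.3% and 45.3% of all genes. The medians were -0.079 and 0.061, against 0.01 and 0 for all genes, and none changed more than 2-fold. Between the hairpins 8 were higher and 3 lower with shEya3_KD2, against 27% and 22.5%. Ccnb1, which encodes cyclin B1, fell by 0.33 ± 0.079 and 0.41 ± 0.079, while Cdc25c, a phosphatase that starts mitosis, rose by 0.35 ± 0.076 and 0.28 ± 0.076. The spindle checkpoint kinase gene Bub1 rose by 0.48 ± 0.062 with shEya3_KD1 and was 0.42 ± 0.062 lower with shEya3_KD2 than with shEya3_KD1. Aurka, a mitotic kinase, fell by 0.26 ± 0.06 with shEya3_KD1. Bub1b fell by 0.26 ± 0.077, a call lost without shEya3_KD1 replicate 3 (-0.20), and was 0.45 ± 0.077 higher with shEya3_KD2 than with shEya3_KD1, as was Foxm1 by 0.47 ± 0.08. With shEya3_KD2 Ccna2, which encodes cyclin A2, fell by 0.45 ± 0.062, and Mcm6, a subunit of the replicative helicase, rose by 0.44 ± 0.06. Ccna2 was 0.42 ± 0.062 below shEya3_KD1. Mki67 rose by 0.58 ± 0.18 with shEya3_KD2 and was 0.68 ± 0.18 above shEya3_KD1. Without shEya3_KD2 replicate 2, its highest library, these values were 0.35 and 0.45, and the call against SCR was lost without SCR replicate 1 (0.48). Cdkn1a was higher with both hairpins, and the genes it is known to repress went both ways.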

How the data were processed

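Per the labels' protocols, library preparation used a NuGEN mRNA-Seq kit. Per the submitters' processing notes, FastQC, MultiQC and STAR were used with mm10. The tool, annotation and strand option used for counting were not given in the sources used here. Raw counts per gene symbol were taken from the authors' deposited table without change. All 55418 symbols matched GENCODE M21 (mm10), used for coordinates and exon lengths. Sequences are from RefSeq (GRCm38.p6).

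Groups and replicate numbers came from the sample titles. The test was run with edgeR 4.0.16 (R 4.3.3), using filterByExpr, TMM scaling and 1 robust quasi-likelihood fit of all 9 libraries with group as the only term, with Benjamini-Hochberg adjustment over all genes tested and a threshold of 0.05. CPM were computed on the TMM-scaled library total. Standard errors come from the fold change and its F statistic, and the 95% intervals from the fit's t distribution. Counting intervals and floors (3 counts over a group) cover counting error only. No exact permutation p below 0.1 exists for 3 libraries against 3, hence the model across genes. No 2 replicates were alike within counting noise: chi-square over degrees of freedom was 9.24 to 45.2 (genes with 20 or more reads in both together).

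Alternatives were RLE size factors, DESeq2 1.42.0, glmTreat with a minimum fold of 1.5, a replicate block, fits of only the groups compared, no filter, a filter of 5 CPM (3 libraries), and leaving out each of the 9 libraries. The members and lists were chosen with earlier results of these data known. Of the other lists, up to 5 genes per comparison with the largest changes among those called, with a mean of at least 1 CPM in a compared group, are named, except 1 that is not reported here.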

Additional observations from a re-analysis of the deposited data

Results flagged for a closer look

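The 2 hairpins moved Plk2 and Zmat3 in opposite directions from SCR, and the difference between the hairpins passed edgeR's quasi-likelihood test. These 2 genes are given because of their opposite calls against the same SCR libraries. The share of all genes with opposite calls was not counted. Given opposite calls, a difference between the hairpins nearly follows, so it is no added support. For Plk2 that difference, shEya3_KD2 minus shEya3_KD1, was 1.73 (log2), with each of the 3 shEya3_KD2 libraries above each shEya3_KD1 library. Zmat3 differed by -0.76 in the same comparison, with each of the 3 shEya3_KD2 libraries below each shEya3_KD1 library.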

How the results depend on the processing

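Among 2012 values of single genes under alternatives other than the minimum fold, 1937 kept their direction and side of the threshold, 21 lost a call, 20 gained one and 34 changed direction, all of the last without a call. Tested against a minimum fold of 1.5, the members called with shEya3_KD1 against SCR fell from 15 to 5 (1 rose, 4 fell), those with shEya3_KD2 against SCR from 19 to 3 (2 rose, 1 fell) and those between the hairpins from 17 to 5 (3 rose, 2 fell). Of all 15914 genes 2591, 1456 and 2087 were called by that test. With each library left out the 3 counts of members were 15 to 18, 17 to 20 and 16 to 17. Of the 16190 to 16272 genes tested in those fits, 7044 to 8681, 5984 to 7695 and 6747 to 8433 were called. With a replicate block the members called were 16, 18 and 17, against 8093, 7329 and 8017 of all 15914 genes. Mdm2 with shEya3_KD2 lost its call there (adjusted p = 0.054), and Trp53 with shEya3_KD1 gained one (adjusted p = 0.0399). The numbers are not said to pair libraries, and deviations of same-numbered libraries from their group means correlated at -0.21 to 0.36, against -0.44 to 0.35 for different numbers. Directions changed only near 0. For shEya3_KD1 against SCR, leaving out each library gave -0.029 to 0.051 for Bax, -0.059 to 0.12 for Ddb2, -0.13 to 0.00091 for Phlda3 and -0.11 to 0.033 for Sesn1. For shEya3_KD2 against SCR it gave -0.012 to 0.079 for Aen, -0.086 to 0.13 for Ddb2 and -0.052 to 0.096 for Sesn1, and the filter of 5 CPM gave -0.0024 for Ddb2 and -0.0038 for Sesn1. Between the hairpins it gave -0.054 to 0.027 for Aen, -0.042 to 0.052 for Cdkn1a, -0.063 to 0.013 for Ckap2, -0.12 to 0.11 for Ddb2 and -0.012 to 0.13 for Dglucy. There, no filter gave 0.004 for Aen and 0.016 for Ddb2. Cdkn1a was -0.0095 with RLE factors, -0.026 with the filter of 5 CPM, -0.022 with only the groups compared and -0.0097 in DESeq2. No scaling moved the median of all genes by more than 0.03 on the log2 scale. Depth limits Gdf15, Perp and Pmaip1, whose levels rest on 46 counts or fewer in any group.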

Other observations

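Cdkn2a, whose Arf product blocks Mdm2 in mouse cells, and Trp63, a relative of Trp53, were each counted almost wholly in 1 hairpin group; Cdkn2a is given here after its values were seen. Cdkn2a had 1 count in SCR, 1 in shEya3_KD1 and 54 in shEya3_KD2, a ratio of shEya3_KD2 to SCR of 64.0 with a 95% counting interval of 11.0 to 2570.0. Its level in shEya3_KD2 was 0.468, 0.443 and 0.425 CPM. Trp63 had 4.92, 5.36 and 4.06 CPM in shEya3_KD1, and 1 and 2 counts in SCR and shEya3_KD2. Each of the 2 genes passed the filter on low counts through that group alone, so the test result adds nothing.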
